A study of Homo sapiens with 40 samples.

Results

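Exons that lie in long introns were followed in HEK293 Flp-in T-REx cells (a human line from embryonic kidney in which a gene can be integrated and switched on) whose RNA polymerase II carried one of 4 forms of its large subunit Rpb1. An exon was taken when the stretch between its flanking exons, called the span here, was 20000 nt or more in a RASL-seq table and when the same exon and span also stood in an RNA-seq exon table. This rule uses span length and presence in both assays, and not the splicing values, and it found 358 of 2456 RASL-seq rows. A further 1444 rows with an RNA-seq counterpart had shorter spans. The exons belong to 311 gene identifiers, of which 308 had a symbol, and 35 genes had more than 1 row.

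The groups were cells with the R749H, the H1106Y or the E1126G polymerase and cells with the wild-type (WT) one. R749H and H1106Y are known as slow and E1126G as a fast form. Every group, WT included, carried an α-amanitin-resistant Rpb1 transgene that was induced with doxycycline for 12 to 16 h, after which α-amanitin blocked the cells' own polymerase for 42 h. RASL-seq, in which probe pairs that meet at a chosen exon junction are ligated and sequenced, had 3 libraries of each genotype, and RNA-seq had 2 each of R749H, E1126G and WT. The labels call the RNA-seq libraries biological replicates and do not say whether RASL-seq libraries came from separate cultures.

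Splicing mostly takes place while the gene is still being transcribed. When an exon emerges from the polymerase, its splice sites can be paired at once, or they can wait and compete with the downstream exon. A long downstream intron gives the polymerase more distance to travel before the competing site exists, so the pace of elongation and the length of introns are both known to bear on whether a weak exon is kept. In very long introns, pairing across the exon itself (exon definition) is held to be the usual route by which an exon is recognised.

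All levels come from the authors' deposited tables, which compare each mutant with WT and hold 1 pooled value per genotype. Inclusion is the percentage of exon-including over including plus skipping signal, computed here from the deposited ratios. The depth behind a level is not given and values of single libraries were not analysed here, so no SD or interval stands beside a level. Most RASL-seq ratios equal a fraction of whole numbers with at least 1 term of at most 300. Some levels, also among the largest changes, may therefore rest on few signals. The deposited p-value of each exon was given a Benjamini-Hochberg adjustment across the whole of its table. An exon is called higher, lower or changed when that adjusted p was at most 0.05. The sources used here do not say whether the deposited p-values carry the spread between libraries. RASL-seq levels also depend on how well each probe pair ligates, so levels were compared within an assay only. All comparisons of an assay share the same WT libraries, so mutants are set side by side without a test of their overlap.

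The spans ran from 20070 to 495130 nt with a median of 32735 nt, and 29 were 100000 nt or longer. The exons had a median length of 104.5 nt, against 96 nt in the shorter spans. Very short exons were scarce, with 3 exons (0.838%) of at most 27 nt against 41 (2.84%) in the shorter spans. An exon length divisible by 3, which keeps the reading frame on skipping, was found in 184 exons (51.4%) against 851 (58.9%). The upstream intron made up a median of 59.1% of the intronic length, against 49.9% in shorter spans. WT inclusion covered the same range in both classes, with RASL-seq medians of 62.9% in long spans and 60.8% in shorter ones.

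Several exons stand at the ends of this range of lengths. The longest span was that of FGF13, an intracellular fibroblast growth factor relative that modulates sodium channels, where the 168-nt exon at chrX:137939674-137939841 (GRCh37) sat in 495130 nt. Its RASL-seq inclusion was 7.63% in R749H, 7.84% in H1106Y and 9.55% in E1126G, against 11% in WT, and none of these differences passed the threshold. Next came UBE2E2, a ubiquitin-conjugating enzyme, with 315241 nt, TMEM117 with 266927 nt, SUGCT, a mitochondrial CoA transferase, with 253047 nt, RANBP17, an importin relative, with 201752 nt and ENOX2 with 198429 nt. Among these, SUGCT (17.3% in R749H against 4.55% in WT) and ENOX2 (86.7% against 70.6%) were higher in R749H. UBE2E2 (95.9% in H1106Y against 98.8% in WT) and RANBP17 (58.7% against 74.0%) were lower in H1106Y, and TMEM117 (79.0% against 91.0%) was lower in E1126G. RNA-seq called none of SUGCT and ENOX2 in R749H and TMEM117 in E1126G. Its values were 3.57% against 12.2% in WT for SUGCT, 94.2% against 87.5% for ENOX2 and 95.5% against 88.75% for TMEM117. At the lower edge, COL25A1 (20070 nt) had 14.8% in R749H against 10.1% in WT and ERBIN (20072 nt) 6.84% against 9.56%. Just outside the rule were ZFX (19884 nt; 20.7% in R749H against 11.5% in WT) and SCP2 (19786 nt; 99.7% against 99.6%).

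In R749H cells, 147 of the 340 long-span exons with a RASL-seq value changed (43.2%), which is near the 44.1% of all RASL-seq exons. Of these, 94 were higher and 53 lower than in WT. Over all RASL-seq exons 24% were higher and 20.1% lower. The median log2 change of the inclusion ratio was 0.21 in the long-span exons, against 0.05 over all RASL-seq exons and 0.01 over the exons of shorter spans. In those shorter spans 340 exons were higher and 304 lower.

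The largest increases in R749H were in genes of unrelated roles. DENND2B, an activator of the small GTPase Rab13, included its 1260-nt exon (chr11:8751497-8752756) at 54.5% in R749H and 31.0% in E1126G, against 8.64% in WT (adjusted p 0.0028 and 0.011, Benjamini-Hochberg on the deposited p). LRRC28 included a 41-nt exon at 68.4% in R749H, against 27.7% in WT. OSBPL10, an oxysterol-binding protein, included a 192-nt exon at 39.1% against 7.2%, and EEFSEC, the elongation factor that delivers selenocysteine, a 165-nt exon at 68.4% against 36.7%. PCNX4 had 80.6% against 49.1%, ARHGEF28, a guanine nucleotide exchange factor, 47.8% against 18.5%, and YLPM1 80.3% against 54.1%. RNA-seq called only LRRC28 of these 7 higher in R749H (97.9% against 90.3% in WT, adjusted p 0.025), and YLPM1 had no RNA-seq value in R749H.

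The largest decreases in R749H were led by XIAP, an inhibitor of caspases, whose 909-nt exon (chrX:123019481-123020389) was included at 47.4% in R749H against 90.9% in WT (Benjamini-Hochberg adjusted p 0.011). SLAIN1, which promotes microtubule growth, had 20.9% for a 150-nt exon against 59.4%. CTNND1, the p120 catenin that stabilises cadherins, had 45.1% for its 119-nt exon against 71.3%, and a neighbouring 289-nt exon of CTNND1, in a span that starts at the same flanking exon, went the other way with 25.6% against 15.5%. BANP, a nuclear matrix-binding protein, had 24.4% against 49.1%, the zinc finger gene ZNF138 21.8% against 45.4%, RCC1, the nucleotide exchange factor of Ran, 26.2% against 47.0% and ACSL3, a long-chain acyl-CoA synthetase, 49.7% against 68.6%. RNA-seq called CTNND1 (119 nt), BANP, ZNF138, SLAIN1 and ACSL3 lower too, for example ZNF138 at 21.7% in R749H against 74.6% in WT (adjusted p 5.1e-06, Benjamini-Hochberg). XIAP (89.0% against 93.9%) and RCC1 (46.7% against 62.7%) did not pass in RNA-seq.

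**Figure D1:**
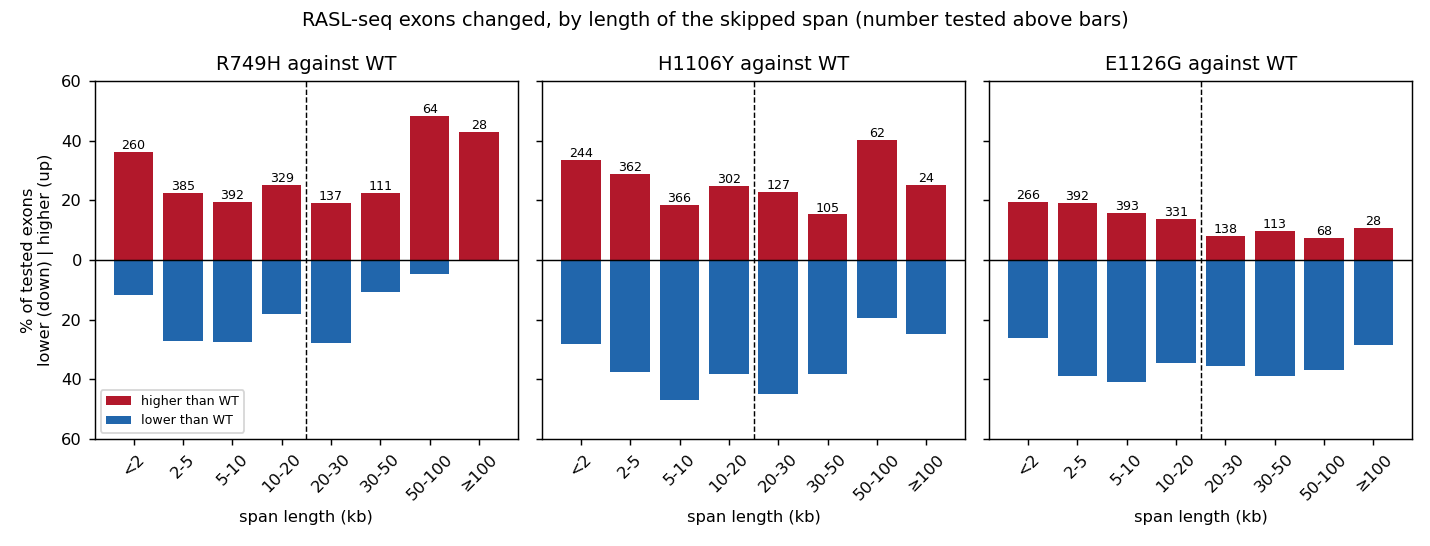
Percentage of tested RASL-seq exons called higher (bars up) or lower (bars down) than WT in R749H, H1106Y and E1126G, by span length in kb; numbers above the bars are exons tested, and the dashed line marks 20 kb. In R749H the upward bars are tallest at 50 to 100 kb and the downward bars shrink to 0 at 100 kb and over, while in E1126G the downward bars are the larger ones in every bin.

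The excess of higher exons in R749H lay in the longest spans. From 20000 to under 50000 nt, 51 exons were higher and 50 lower of 248, with a median log2 change of −0.02. In spans of 50000 nt or more, 43 were higher and 3 lower of 92, with a median log2 change of 0.70. These 43 exons came from 39 genes, and in spans of 100000 nt or more 12 were higher and 0 lower of 28 (15 and 1 at an unadjusted p under 0.05). The 3 lower exons were in RBM6, RTN3 and STAG2. Counts did not climb steadily with length: below 2000 nt, 94 exons were higher and 31 lower, while from 2000 to under 10000 nt the lower exons were the more numerous, with 87 higher and 105 lower below 5000 nt and 76 and 108 above it.

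Many of the 43 exons were nearly always included in WT and moved by few percentage points. Among exons in spans of 50000 nt or more with a WT inclusion of 80% or above, 26 of 41 were higher in R749H and 0 lower by the Benjamini-Hochberg threshold, and 29 were higher and 2 lower at an unadjusted p under 0.05. The median change over the 41 was 1.49 points. Examples are ATL2, an endoplasmic reticulum fusion protein, at 96.7% in R749H against 88.9% in WT, and CAP2, an actin-binding protein, at 98.0% against 93.6%. With a WT inclusion of 50% to 80%, 6 of 17 were higher and 0 lower (7 and 0 unadjusted), and below 50%, 11 were higher and 3 lower of 34. NEK11, a NIMA-related kinase, had 93.8% in R749H against 76.9% in WT. FOXP2, a forkhead transcription factor, rose to 72.6% in R749H against 49.7% in WT for a 75-nt exon, and BCL11A, a zinc finger repressor, to 41.2% against 25.4%. By RNA-seq the FOXP2 exon had 36.8% in R749H against 57.5% in WT and was not called. ATL2, CAP2, NEK11 and BCL11A were chosen after their values were seen.

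**Figure D2:**
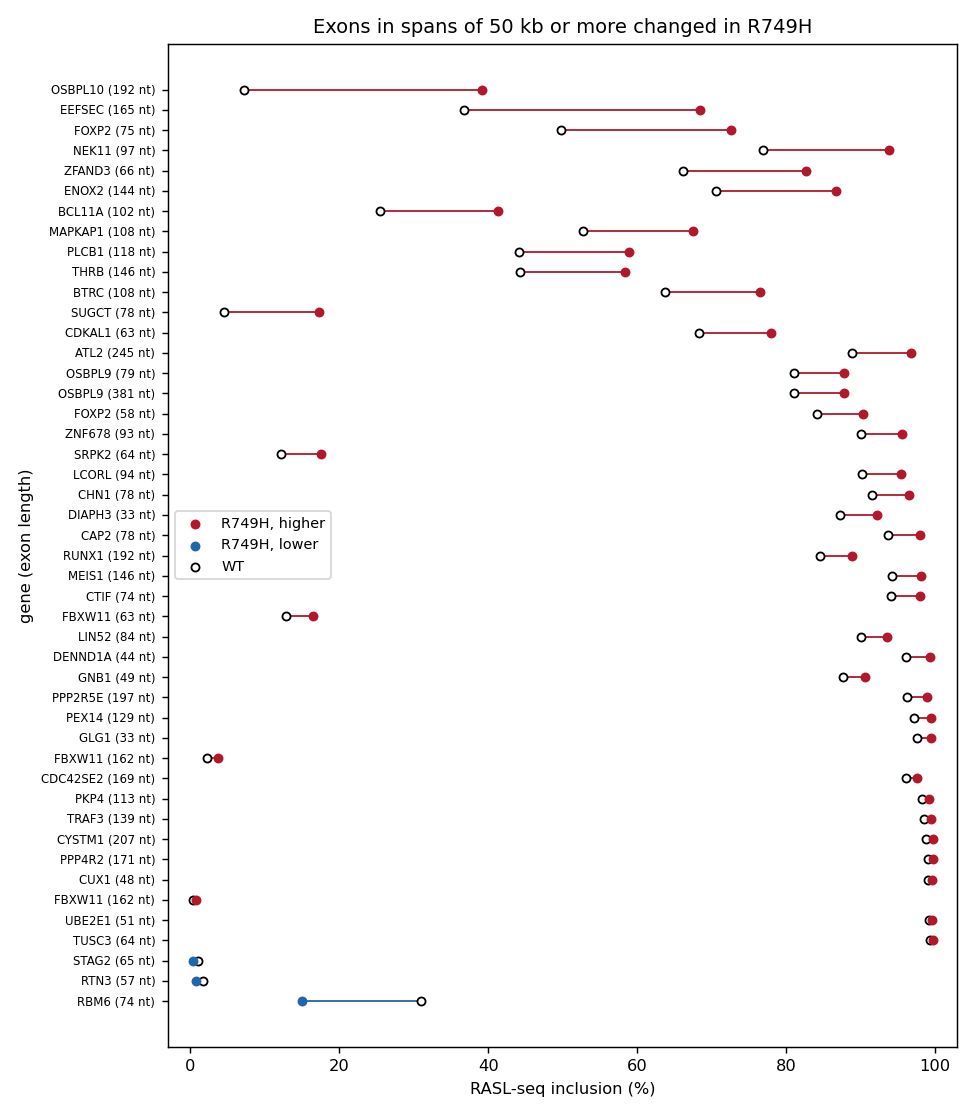
RASL-seq inclusion (%) of the 46 exons in spans of 50 kb or more that changed in R749H, one row per exon with its gene and exon length; filled points are R749H (red higher, blue lower) and open points WT. The 43 red rows all lie right of WT, most by a few points near 0% or 100%, and RBM6 is the one clearly separated decrease.

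RNA-seq did not show the same excess by its own calls. Of the 346 long-span exons with an RNA-seq value in R749H, 54 changed (15.6%), near the 15.1% of all RNA-seq exons, with 11 higher and 43 lower. Over all RNA-seq exons 7.07% were higher and 8.04% lower. In the shorter spans that both assays cover, 374 of 1390 changed (26.9%), with 152 higher and 222 lower. Of the 96 exons in spans of 50000 nt or more, 0 were higher and 6 lower by the Benjamini-Hochberg adjusted p, and 7 were higher and 12 lower at an unadjusted p under 0.05. Of the same 96, 55 had a log2 change above 0, and the median was 0.20. The 6 were in CHN1 (289 nt), CMTM8, FBXW11 (63 nt), RBM6, TMEM117 and TMEM51. Over all 484 RNA-seq exons in such spans, with or without a RASL-seq probe, 7 were higher and 29 lower in R749H.

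Exon by exon, the R749H calls of RASL-seq were set beside the RNA-seq values, which come from other libraries. Of the 53 exons lower by RASL-seq, 51 (96.2%) had an RNA-seq log2 change below 0 and 21 were called lower there. Of the 89 exons higher by RASL-seq that RNA-seq also measured, 58 (65.2%) had an RNA-seq change above 0 and 10 were called higher. In shorter spans these shares were 91.4% of 291 lower exons and 85.1% of 329 higher exons. There RNA-seq called 138 of the 291 lower and 102 of the 329 higher. Called or not, 142 of 346 long-span exons (41.0%) and 644 of 1390 in shorter spans (46.3%) were above 0 by RNA-seq. In spans of 50000 nt or more, 26 of 42 exons higher by RASL-seq (61.9%) were above 0 by RNA-seq, near the 57.3% of all 96 such exons. By the Benjamini-Hochberg threshold 0 of the 42 were called higher there (5 higher and 2 lower at an unadjusted p under 0.05). FBXW11, an F-box subunit of a ubiquitin ligase, was called in opposite directions for its 63-nt exon, at 16.5% in R749H against 12.8% in WT by RASL-seq and 58.8% against 79.4% by RNA-seq (adjusted p 0.032 and 0.034, Benjamini-Hochberg). The differences between these shares were not tested. Across the 328 exons with both values the log2 changes had a Pearson correlation of 0.58 in R749H, against 0.65 across 1320 exons of shorter spans, as a description of exons that share libraries.

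The 10 long-span exons higher by both assays in R749H included MCCC2, a subunit of the carboxylase that breaks down leucine, with 72.9% against 51.6% in WT by RASL-seq and 96.5% against 84.1% by RNA-seq. AKT2, a kinase of insulin signalling, had 96.9% against 89.3% by RASL-seq and 99.3% against 95.3% by RNA-seq. FGFR1, a fibroblast growth factor receptor, had 94.6% against 90.2% by RASL-seq and 82.8% against 45.4% by RNA-seq for its 267-nt exon (adjusted p 2.4e-08 and 7.5e-09, Benjamini-Hochberg). The other 7 were in APP, DAP3, KTN1, LRRC28, NCK2, RNF185 and UBE2L3. All 10 spans were under 50000 nt. Apart from LRRC28 and MCCC2, these genes were picked for being called in both assays.

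**Figure D3:**
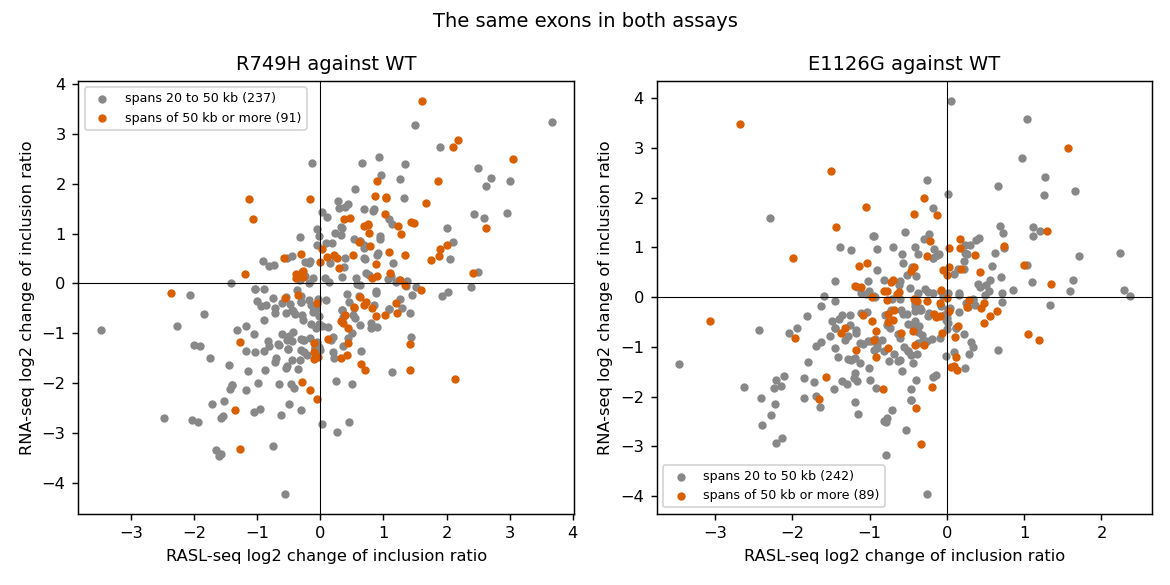
Log2 change of the inclusion ratio by RNA-seq (vertical) against RASL-seq (horizontal) for each long-span exon measured by both, in R749H (left) and E1126G (right); grey points are spans of 20 to 50 kb and orange points spans of 50 kb or more. The R749H orange points crowd to the right of 0 on the RASL-seq axis but lie on both sides of 0 on the RNA-seq axis.

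In H1106Y cells, 191 of 318 long-span exons changed by RASL-seq (60.1%), near the 61.9% of all RASL-seq exons, with 76 higher and 115 lower. Over all RASL-seq exons 23.7% were higher and 38.2% lower. The median log2 change was −0.25 in long spans, −0.33 over all RASL-seq exons and −0.30 in shorter spans, where 328 exons were higher and 493 lower. Length again separated the counts, with 45 higher and 97 lower of 232 in spans under 50000 nt and 31 higher and 18 lower of 86 at 50000 nt or more. In those longest spans the higher exons were mostly those of low WT inclusion, with 18 higher and 5 lower of 32 exons below 50%. H1106Y had no RNA-seq, so these values have no second assay beside them.

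The largest increases in H1106Y included a matrix protein, a chromatin regulator and a splicing factor kinase. ARHGEF28 reached 76.0% in H1106Y, beside 47.8% in R749H and 33.1% in E1126G, against 18.5% in WT for its 78-nt exon (chr5:73218912-73218989). VCAN, the matrix proteoglycan versican, included the 2961-nt exon that encodes one of its glycosaminoglycan attachment regions at 53.1% in H1106Y, 23.0% in R749H and 21.2% in E1126G, against 14.4% in WT. SRPK2, a kinase of SR splicing factors, had 47.0% for a 64-nt exon in a span of 184862 nt, against 12.1% in WT. ASXL1, a chromatin regulator of the Polycomb system, had 47.3% against 14.3%, PDIA5, a protein disulfide isomerase, 62.5% against 12.9%, and the 112-nt exon of LRRC28 77.1% against 31.6%. EEFSEC (83.3% against 36.7%) and PCNX4 (82.5% against 49.1%) were high in H1106Y as in R749H. Differences between mutants were not tested, because only their separate comparisons with WT are at hand.

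The largest decreases in H1106Y were in genes of signalling, transport and RNA or nuclear function. CYRIB, which binds and restrains Rac1, included its 83-nt exon (chr8:130891635-130891717) at 46.7% in H1106Y, against 91.9% in WT. SLC35A1, the Golgi transporter of CMP-sialic acid, had 50% against 94.6%. YTHDF2, a reader of methylated adenosine in mRNA, had 22.4% for a 1584-nt exon against 72.1%, and it was not lower in R749H (69.4%) or E1126G (84.9%) by the threshold. RCC1 had 7.14% against 47.0%, BANP 11.1% against 49.1% and SLAIN1 19.4% against 59.4%. THRB, a thyroid hormone receptor, had 15.6% for its 137-nt exon against 54.9%, and NRXN3, a synaptic adhesion protein, 44.4% against 81.2%.

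In E1126G cells the changed long-span exons were mostly lower. Of 347 exons, 156 changed by RASL-seq (45%), against 47.5% of all RASL-seq exons, with 30 higher and 126 lower. Over all RASL-seq exons 13.9% were higher and 33.6% lower. The median log2 change was −0.42 in long spans, against −0.37 over all RASL-seq exons and −0.34 in shorter spans. The share of higher exons among those changed was 19.2% in long spans and 32.0% in shorter ones (234 higher and 497 lower), a difference that was not tested. Without the need for an RNA-seq row the shares were closer, at 24.1% and 30.5%. By length, there were 22 higher and 93 lower in spans under 50000 nt and 8 higher and 33 lower at 50000 nt or more. RNA-seq called 22 of 341 long-span exons changed (6.45%, against 6.48% of all RNA-seq exons), with 4 higher and 18 lower. In the shorter spans that both assays cover it called 198 of 1399 (14.2%), with 59 higher and 139 lower. Over all RNA-seq exons 2.2% were higher and 4.27% lower.

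The E1126G calls were unevenly spread over exon length and WT level. Of 30 exons of at most 50 nt, 0 were higher and 19 lower by the Benjamini-Hochberg threshold, and 0 and 20 at an unadjusted p under 0.05. The shorter spans leaned the same way, with 20 higher and 109 lower of 211 such exons. Of 45 long-span exons of 200 nt or more, 11 were higher and 10 lower, and in shorter spans 47 were higher and 32 lower of 141. Among long-span exons with a WT inclusion of 20% to 80%, 2 were higher and 49 lower of 115, against 86 higher and 184 lower of 478 in shorter spans. The 2 were CCND3 and PCNX4. In R749H, 8 long-span exons of at most 50 nt were higher and 5 lower of 30, against 37 higher and 64 lower of 207 in shorter spans. None of these differences between span classes was tested.

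The exons that fell furthest in E1126G spanned several functions. R3HCC1L had 24.1% for a 55-nt exon in E1126G against 59.4% in WT. ACSL3 had 38.5% against 68.6%, ARID1B, a subunit of the BAF chromatin remodeller, 64.3% for a 42-nt exon against 93.8%, and KMT2E, a chromatin regulator with a SET domain, 41.6% for a 74-nt exon against 67.1%. VAPB, a tether of the endoplasmic reticulum, had 43.6% against 67.7% and SMYD2, a lysine methyltransferase, 47.4% against 71.2%. The largest increase in E1126G was in CCND3 (cyclin D3), at 79.5% against 56.6% in WT for a 216-nt exon in a span of 111106 nt. PCNX4 had 66.7% against 49.1%, BTBD3 22.7% against 10.5% and DCAF6, a substrate receptor of a cullin ligase, 10.7% against 2.38%.

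By RNA-seq, 95 of the 123 long-span exons lower in E1126G by RASL-seq (77.2%) also had a log2 change below 0, and 13 of them were called lower. In shorter spans this share was 85.2% of 488 exons, of which 120 were called lower, and in spans of 50000 nt or more it was 61.3% of 31. Called or not, 134 of 341 long-span exons (39.3%) were above 0 by RNA-seq in E1126G. The log2 changes of the 2 assays had a Pearson correlation of 0.42 across 331 long-span exons, against 0.62 across 1343 in shorter spans. Across 89 exons in spans of 50000 nt or more it was 0.04. These differences were not tested. Of the 27 exons higher by RASL-seq, 22 (81.5%) had an RNA-seq change above 0 and 0 were called higher by the Benjamini-Hochberg threshold (8 at an unadjusted p under 0.05). In shorter spans 79.9% of 224 such exons were above 0 and 44 were called higher, and these differences were not tested either. DIAPH2, a formin that nucleates actin, was called in opposite directions for its 21-nt exon, at 92.7% in E1126G against 98.8% in WT by RASL-seq and 97.1% against 75% by RNA-seq (Benjamini-Hochberg adjusted p 0.012 and 0.027).

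**Figure D4:**
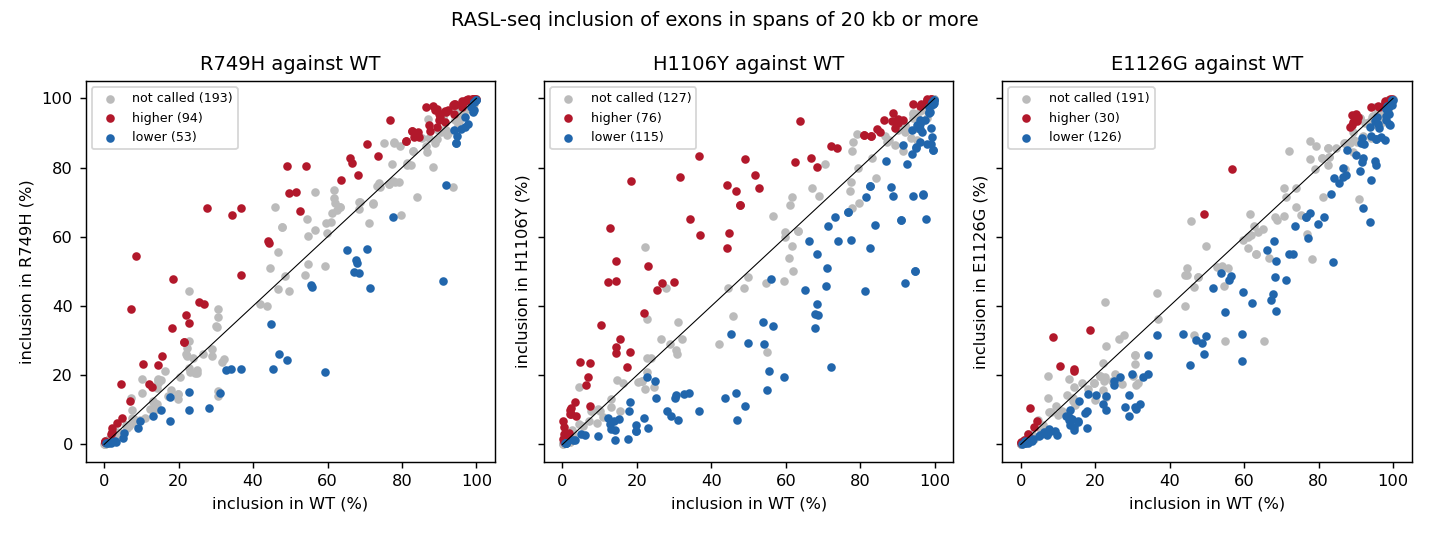
RASL-seq inclusion (%) of each long-span exon in R749H, H1106Y and E1126G (vertical) against WT (horizontal), coloured by call, with the line of equal inclusion. R749H has 94 exons above and 53 below the line by the threshold, H1106Y has 76 and 115, and E1126G has 30 and 126.

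Of the 283 long-span exons with a value in every comparison, exons of 6 genes were lower in each of the 3 RASL-seq and both RNA-seq comparisons. No long-span exon was higher in every one, since RNA-seq called 0 of the 27 exons higher by RASL-seq in E1126G. The comparisons of an assay share the same WT libraries. No such count is given here for shorter spans, so it cannot be read as particular to long ones. The 83-nt exon of CYRIB had 74.8% in R749H, 46.7% in H1106Y and 68.4% in E1126G, against 91.9% in WT by RASL-seq, and 65.2% in R749H and 68.4% in E1126G against 92.8% in WT by RNA-seq. The 66-nt exon of BCAS3 (chr17:59457867-59457932) had 10.6%, 9.72% and 10.8% in R749H, H1106Y and E1126G, against 28.0% in WT by RASL-seq, and by RNA-seq 8.57% in R749H and 11.3% in E1126G against 33.5% in WT. Both exons had all mutants on one side of WT in both assays, with the slow and fast forms on the same side.

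The 33-nt exon of NUMB, an endocytic adaptor that antagonises Notch, had 6.9%, 1.63% and 4.74% in R749H, H1106Y and E1126G, against 17.7% in WT by RASL-seq, and 18.8% in R749H and 32.6% in E1126G against 59.4% in WT by RNA-seq. The 150-nt exon of SLAIN1 had RNA-seq levels of 12.3% in R749H and 16.5% in E1126G, against 47.9% in WT. The 27-nt exon of DIAPH1, another formin, was included at 96.0%, 91.4% and 95.5% in R749H, H1106Y and E1126G, against 99.0% in WT by RASL-seq, and at 69.7% in R749H and 77.5% in E1126G against 93.9% in WT by RNA-seq. The 76-nt exon of VPS26A, a retromer subunit that recycles receptors from endosomes, had 90.9%, 84.0% and 76.4%, against 94.0% in WT by RASL-seq. The weakest of the 30 calls was NUMB in E1126G by RNA-seq, with a Benjamini-Hochberg adjusted p of 0.047. All 6 spans were between 23482 and 31815 nt.

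**Figure D5:**
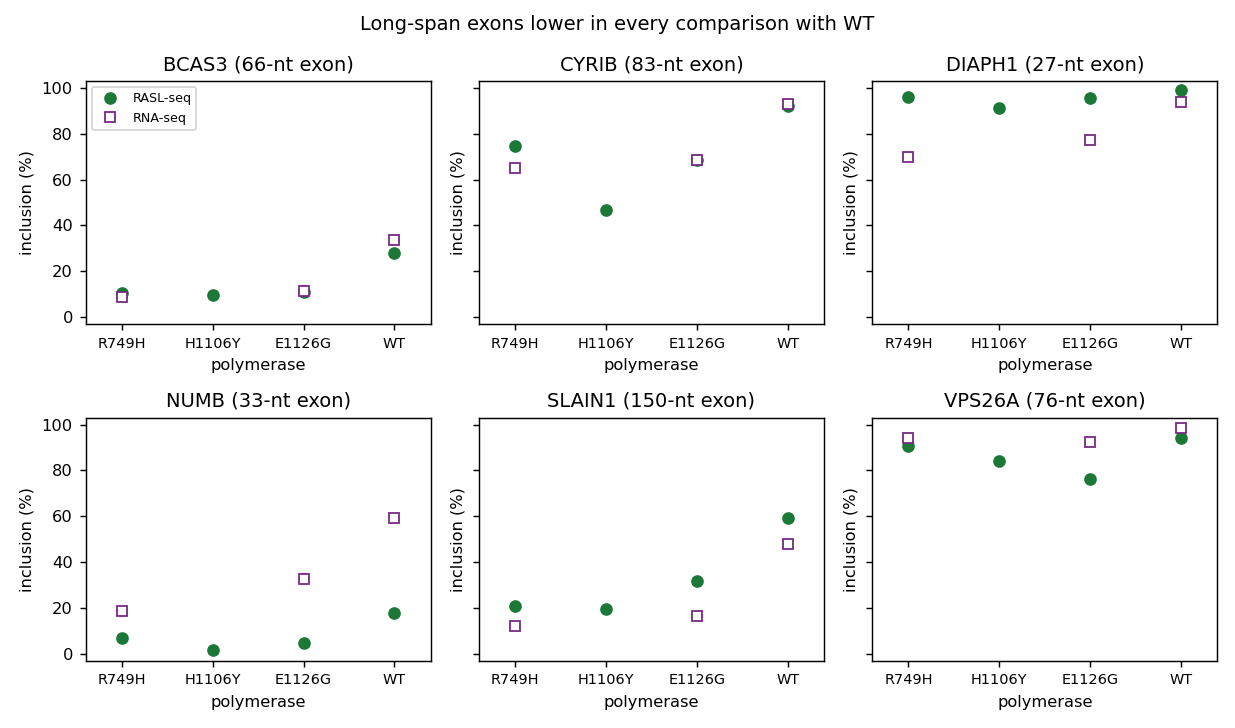
Inclusion (%) in R749H, H1106Y, E1126G and WT for the 6 long-span exons lower in every comparison, by RASL-seq (filled circles) and RNA-seq (open squares, no H1106Y libraries). Every mutant point lies below the WT point of the same assay.

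Other exons moved in opposite directions between mutants, each against the same WT. FGFR2, a receptor for fibroblast growth factors, included a 78-nt exon (chr10:123324016-123324093) at 66.4% in R749H and 65.3% in H1106Y but 20.5% in E1126G, against 34.2% in WT. A 267-nt exon of FGFR2 (chr10:123324952-123325218) lies in the intron upstream of it, and both spans start at the same upstream exon. The junction that skips the 267-nt exon is thus also a junction that includes the 78-nt exon. Opposite changes of the 2 exons can be built into their ratios and are not separate observations. That 267-nt exon was lower in R749H (91.3%) and H1106Y (92.6%) and higher in E1126G (97.9%), against 95.9% in WT. By RNA-seq it was 50.8% in R749H (lower, adjusted p 0.015, Benjamini-Hochberg) and 97.0% in E1126G (adjusted p 0.076), against 82.1% in WT, while the 78-nt exon had 95.1% in R749H and 96.7% in E1126G against 95.9%. The 267-nt exon of the paralogue FGFR1, of the same length, was higher in R749H (94.6%), H1106Y (92.9%) and E1126G (93.4%), against 90.2% in WT.

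MCCC2 followed the pattern of the shorter FGFR2 exon, with 72.9% in R749H, 77.8% in H1106Y and 45.1% in E1126G, against 51.6% in WT. SRPK2 had 17.6% in R749H and 47.0% in H1106Y but 8.12% in E1126G, against 12.1% in WT. The slow forms also parted from each other. YLPM1 had 80.3% in R749H and 29.1% in H1106Y, against 54.1% in WT for a 2118-nt exon. ADGRL3, an adhesion receptor of the latrophilin family, had 10.0% in R749H and 13.9% in E1126G but 51.7% in H1106Y, against 22.9% in WT for a 39-nt exon.

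By function, 19 exons in 17 genes of transcription and chromatin were the largest group. For this and the other lists, the shares over all RASL-seq exons were 24% higher and 20.1% lower in R749H, 23.7% and 38.2% in H1106Y and 13.9% and 33.6% in E1126G, and no list was tested against them. In E1126G 10 of 19 were lower and 0 higher by the Benjamini-Hochberg threshold, the same as at an unadjusted p under 0.05. The median log2 change of the 19 was −0.47, against −0.37 over all RASL-seq exons. In R749H 6 were higher and 1 lower of 18, at a median of 0.45 against 0.05 over all. In H1106Y 6 were higher and 3 lower of 16, at a median of 0.42 against −0.33 over all. RNA-seq called 0 higher and 1 lower of 19 in R749H and 0 of 18 changed in E1126G by the Benjamini-Hochberg threshold. At an unadjusted p under 0.05 these were 0 and 3 in R749H and 0 and 1 in E1126G. KMT2E and ARID1B were among the E1126G decreases, FOXP2 among the R749H increases, and CREM, a factor of the cAMP response, had 56.7% for a 189-nt exon in H1106Y against 82.5% in WT.

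Ubiquitin ligases and deubiquitinases gave 13 exons in 8 genes. In R749H 7 were higher and 1 lower of 13, in H1106Y 6 were higher and 3 lower of 11, and in E1126G 0 were higher and 5 lower of 13 (2 and 5 at an unadjusted p under 0.05). The median log2 changes were 0.69 in R749H, 0.71 in H1106Y and −0.40 in E1126G, against 0.05, −0.33 and −0.37 over all RASL-seq exons. RNA-seq called 1 higher and 1 lower of 13 in R749H and 0 of 13 in E1126G by the Benjamini-Hochberg threshold (2 and 1 in R749H and 1 and 0 in E1126G at an unadjusted p under 0.05). BTRC, the F-box paralogue of FBXW11, included a 108-nt exon in a span of 107752 nt at 76.5% in R749H, 93.5% in H1106Y and 61.4% in E1126G, against 63.7% in WT. The 63-nt exon of FBXW11 was higher in R749H (16.5%) but lower in H1106Y (5.9%) and E1126G (8.0%), against 12.8% in WT. USP53 had 7.55% in R749H, 23.9% in H1106Y and 2.58% in E1126G, against 4.83% in WT. FBXW11 alone supplied 5 of the 13 exons, which share flanking exons and are not independent.

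Endocytosis and vesicle traffic gave 9 exons, with 5 higher and 1 lower of 9 in R749H, 4 higher and 1 lower of 8 in H1106Y and 1 higher and 2 lower of 8 in E1126G. The shares over all RASL-seq exons were 24%, 23.7% and 13.9% higher and 20.1%, 38.2% and 33.6% lower in R749H, H1106Y and E1126G. The median log2 changes were 0.76, 0.64 and 0.13, against 0.05, −0.33 and −0.37 over all. RNA-seq called 0 higher and 1 lower of 9 in R749H and 0 higher and 2 lower of 9 in E1126G by the Benjamini-Hochberg threshold (3 and 1 in R749H and 1 and 2 in E1126G at an unadjusted p under 0.05). DENND2B was the largest increase and NUMB the one decrease in R749H. OSBPL9, an oxysterol-binding relative, counted as 2 exons of 79 and 381 nt at 87.8% in R749H and 89.4% in H1106Y, against 81.0% in WT, but both carry the same RASL-seq measurement. RNA-binding and splicing genes gave 9 exons, with 1 higher and 4 lower of 8 in H1106Y and in E1126G, and 1 higher and 1 lower of 9 in R749H. With so few exons, these counts cannot be told apart from the shares over all RASL-seq exons, and no comparison was tested. Their median log2 changes were 0.33 in R749H, −0.57 in H1106Y and −0.56 in E1126G. RNA-seq called 0 higher and 2 lower of 9 in R749H and 0 higher and 1 lower of 8 in E1126G by the Benjamini-Hochberg threshold (0 and 2 in R749H and 1 and 1 in E1126G at an unadjusted p under 0.05). RBM6, an RNA-binding protein, had 15.0% in R749H, 7.08% in H1106Y and 10.3% in E1126G, against 31.0% in WT for a 74-nt exon in a span of 72852 nt. RBM41 had 7.61% in H1106Y against 22.0% in WT, and EIF4G3, a translation initiation scaffold, 29.3% for a 109-nt exon against 49.8%.

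The remaining lists held few long-span exons, too few to read against the 24%, 23.7% and 13.9% higher and 20.1%, 38.2% and 33.6% lower of all RASL-seq exons in R749H, H1106Y and E1126G, whose median log2 changes were 0.05, −0.33 and −0.37. Adhesion and guidance had 7, with 2 higher and 3 lower of 6 in R749H, 2 and 3 of 7 in H1106Y and 1 and 3 of 7 in E1126G, and median log2 changes of −0.50, −0.44 and −0.34. RNA-seq called 1 higher and 2 lower of 7 in R749H and 0 of 6 in E1126G by the Benjamini-Hochberg threshold (1 higher at an unadjusted p under 0.05). CADM1, a cell adhesion molecule, had 52.3%, 37.6% and 58.9% in R749H, H1106Y and E1126G, against 67.9% in WT for a 33-nt exon. Kinases and phosphatases had 6, with 2 higher and 1 lower of 6 in R749H, 2 and 3 of 5 in H1106Y and 2 and 3 of 6 in E1126G, and median log2 changes of 0.26, −0.69 and −0.08. RNA-seq called 1 higher and 1 lower of 5 in R749H and 0 of 6 in E1126G by the Benjamini-Hochberg threshold (2 higher at an unadjusted p under 0.05). PPP6R3, a regulatory subunit of protein phosphatase 6, had 67.1% in H1106Y and 65.8% in E1126G against 76.6% in WT. Of the 57 genes on the actin list, 3 had a long-span exon, the formins DIAPH1, DIAPH2 and DIAPH3. All 3 exons, of 21 to 33 nt, were lower in E1126G by RASL-seq. RNA-seq called 1 of the 3 higher (DIAPH2) and 1 lower (DIAPH1) in E1126G, and 0 higher and 1 lower in R749H. DIAPH3 had 92.2% in R749H (higher) and 77.9% in E1126G (lower), against 87.3% in WT. Membrane skeleton and microtubule genes had 2 exons each, among them EPB41 (protein 4.1) at 95.6% in R749H, 90.7% in H1106Y and 91.7% in E1126G against 93.9% in WT, and the kinesin KIF13B at 81.4% in R749H and 82.7% in H1106Y against 66.7% in WT. By RNA-seq the KIF13B exon went the other way, at 45.5% in R749H against 74.0% in WT, but did not pass the threshold (adjusted p 0.086, Benjamini-Hochberg).

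Not every row is a separate measurement. Within each RASL-seq table, values of 28 rows are shared with another exon of the same span, such as the 105- and 127-nt exons of PPP6R3, and counting them once left 142, 182 and 154 changed exons in R749H, H1106Y and E1126G. The exon of SLC35A1 is listed again under a second gene identifier. Of the 358 exons, 304 had a value in all 3 RASL-seq tables and 283 in both assays throughout. RBM6 was the 1 exon of the 3 lower in R749H in spans of 50000 nt or more that RNA-seq also called lower, with 21.5% in R749H against 61.5% in WT (adjusted p 1.3e-08, Benjamini-Hochberg).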

How the data were processed

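RASL-seq and RNA-seq exon tables of a human cell line were used, 3 and 2 tables in all, and GRO-seq was not analysed here. Each deposited table is the authors' comparison of a mutant with WT and pools the libraries of a genotype. Per the file headers and a check of the values, the deposited columns are the natural log of the WT inclusion ratio, the log2 fold of the mutant over the WT ratio and a p-value. With these bases the WT ratio came out as 1 whole number over another for 78.9% to 81.1% of RASL-seq rows and 99.2% of RNA-seq rows. With base 2 this was at most 0.435%. At least 1 of the 2 numbers had to be at most 300, within a relative tolerance of 1e-09. The GRCh37 build, edgeR 3.7.17, Bowtie 0.12.7 and TopHat 1.4.1 are named in the submitters' processing notes, without saying which table each made. The sources used here do not give the test behind the p-value.

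Inclusion was computed as 100 times the ratio over 1 plus the ratio, and the deposited p-values received a Benjamini-Hochberg adjustment over the whole table, with a threshold of 0.05. No read counts per library were at hand, so no count model was fitted, and neither depth nor the precision of a level is given. Whether the calls hold against the spread between libraries was not tested. Exon coordinates are 1-based. Symbols were looked up by gene identifier. No expression levels are in the tables, so the cell line was not checked against markers. The tables coded C4 were read as R749H from the labels.

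The rule for named exons was the 8 largest increases and decreases in percentage points for each mutant, exons called one way in every comparison, the 6 most opposed between mutants, the 6 longest spans, those at the 20000 nt edge and up to 4 for each of 10 gene lists. Some exons and 1 list that the rule names are not reported here. The members and lists were chosen with earlier results of these data known. Python 3.11.15, pandas 2.3.3 and scipy 1.17.1 were used.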

Additional observations from a re-analysis of the deposited data

How the results depend on the processing

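The tables hold no value per library, so leaving out a library could not be run. No paired analysis was possible because the tables carry 1 pooled comparison per mutant and no replicate. The cause of each shift below was not tested, apart from a stricter rule or a smaller set of exons leaving fewer to call. At an adjusted p of at most 0.01 the changed share of long-span exons was 33.2%, 47.2% and 39.5% in R749H, H1106Y and E1126G, and at 0.1 it was 50.6% in R749H and 52.7% in E1126G. With Bonferroni adjustment 62 (18.2%), 100 (31.4%) and 84 (24.2%) exons changed. Requiring at least 10 points left 49 (14.4%), 96 (30.2%) and 51 (14.7%), of which 9.80% were higher in E1126G, and 8.33% in its spans of 50000 nt or more. Spans of 10000 nt or more gave 290, 382 and 315 changed exons, and spans of 50000 nt or more gave 46 (50%), 49 and 41, of which 93.5% were higher in R749H and 63.3% in H1106Y, where the changed exons turned from mostly lower to mostly higher. Without the need for an RNA-seq row, 222 changed in R749H. In alternatives chosen after seeing the data, the RNA-seq counts at 0.01 were 33 in R749H and 8 in E1126G, at 0.1 they were 34 in E1126G, and by Bonferroni 8 and 3. In spans of 50000 nt or more, the R749H split of 43 higher and 3 lower was 33 and 2 at 0.01, 16 and 2 by Bonferroni and 12 and 1 with at least 10 points. Taking directions around the median of all exons gave 94 higher and 53 lower in R749H, 77 and 114 in H1106Y and 35 and 121 in E1126G, which turned 1 exon in H1106Y and 5 in E1126G. Of the named exons' comparisons, 51 lost their call under Bonferroni adjustment and 14 at 0.01. The other 148 and 185 stayed as they were, which includes comparisons that were not called in the first place.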

Other observations

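A further 221 RASL-seq exons in spans of 20000 nt or more had no RNA-seq row and stand outside the comparisons above. In R749H 56 of these were higher and 19 lower of 179 with a value, with a median log2 change of 0.49. In H1106Y 40 were higher and 47 lower of 151, and in E1126G 23 were higher and 41 lower of 199. These exons share the libraries of the 358 described above and are no independent sample.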
